A study of Mus musculus with 2 samples.

Results

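The genes described here are 44 genes of fatty acid, sphingolipid and galactolipid metabolism, chosen by symbol from a list that follows the pathway from cytosolic acetyl-CoA to the lipids of myelin and their breakdown. The list was chosen with earlier results of these data known, so counts over it are a description and not independent support. Each of the 44 symbols has its own entry among the 23950 gene symbols of the deposited tables, and none was found only under an older name. Most encode enzymes. Abca2 (a transporter), Psap (a precursor of activator proteins) and Plekhb1 (a protein with a pleckstrin homology domain) do not.

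Optic nerves of mice of mixed strain were sequenced as RNA at postnatal day 12, with 1 library per genotype. The Hdac3 cKO library came from Hdac3f/f; Olig1-cre mice and the control library from Hdac3f/+; Olig1-cre mice, so both carry the recombinase and the control also has an Hdac3 allele that it can delete. Cre driven from Olig1 acts in cells of the oligodendrocyte lineage, and the other cells of the nerve contribute their RNA to each library. How many animals a library holds is not stated in the labels.

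Myelin membrane is unusually rich in galactosylceramide and its sulfated form, sulfatide, whose fatty chains are often very long and carry a hydroxyl group. Oligodendrocytes build these lipids by making fatty acids from acetyl-CoA, elongating them, joining them to a sphingoid base to give ceramide, and adding galactose and then sulfate. The same ceramide can instead become sphingomyelin or glucosylceramide, and lysosomal enzymes take all of these lipids apart.

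Levels are FPKM as deposited, fragments scaled by transcript length and by library size. The mode of that normalisation is not given in the sources used. A difference is log2 of FPKM plus a pseudocount of 1 in the Hdac3 cKO library over FPKM plus 1 in the control library. Genes were tested where the authors' status was OK in both libraries and FPKM was at least 1 in at least 1 of them, which held for 14154 genes and for 42 of the 44. A gene is called lower or higher where the difference is at least 2-fold and the deposited FPKM intervals do not overlap. Neither genotype was replicated, so differences have no check between replicates, no p-value is given, and each value describes the libraries, not the genotypes. Hdac3 itself had 38.0 FPKM in the cKO-labelled library and 36.4 FPKM in the control-labelled library. Its difference was 0.06 as deposited, -0.06 centred on the median of all tested genes and -0.29 with both libraries scaled to the same FPKM sum. FPKM over the whole gene does not show whether the deleted part was transcribed, so the genotype labels are unchecked by these values, and every direction below compares the library labelled cKO with the one labelled control. Steps of the smallest FPKM values put the cKO-labelled library at 3.17 times the depth of the control-labelled library. By this estimate, which has no independent check, low levels in the cKO-labelled library rest on more fragments. The deposited interval excludes its own FPKM for 21 of the 44 genes in the cKO-labelled library and for 14 in the control-labelled library, so it does not hold all of the estimation error. Among all genes with status OK and at least 1 FPKM in the library concerned, it did so for 33.0% in the cKO-labelled library and 15.9% in the control-labelled library.

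Of the 42 genes tested, 11 were lower in the cKO-labelled library and 0 were higher, while 31 were not called. Over all 14154 tested genes the same rule called 4.51% lower and 4.73% higher. The median difference of the 42 was -0.46, against 0.12 for all tested genes, and 29 of the 42 differences were below 0. Scaled to the same FPKM sum, 16 of the 42 were lower and 0 higher, against 7.04% and 1.41% of all tested genes, and with a 1.5-fold size 18 were lower and 0 higher, against 8.85% and 16.0%. The 11 lower genes were Ugt8a, Fa2h and Gal3st1 of galactolipid synthesis, Elovl7, Elovl6 and Elovl4 of chain elongation, Aspa, Acss2 and Acly of acetyl-CoA supply, the ceramide synthase Cers2 and the transporter Abca2. Deposited intervals stood apart, at any size of difference, for 27 of the 42 with the lower value in the cKO-labelled library and for 12 with the higher value there, against 22.5% and 38.4% of all tested genes. Cers1 was not tested, since both its values carry the status LOWDATA, and Elovl2 was not tested, since it lay below 1 FPKM in both libraries.

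**Figure D1:**
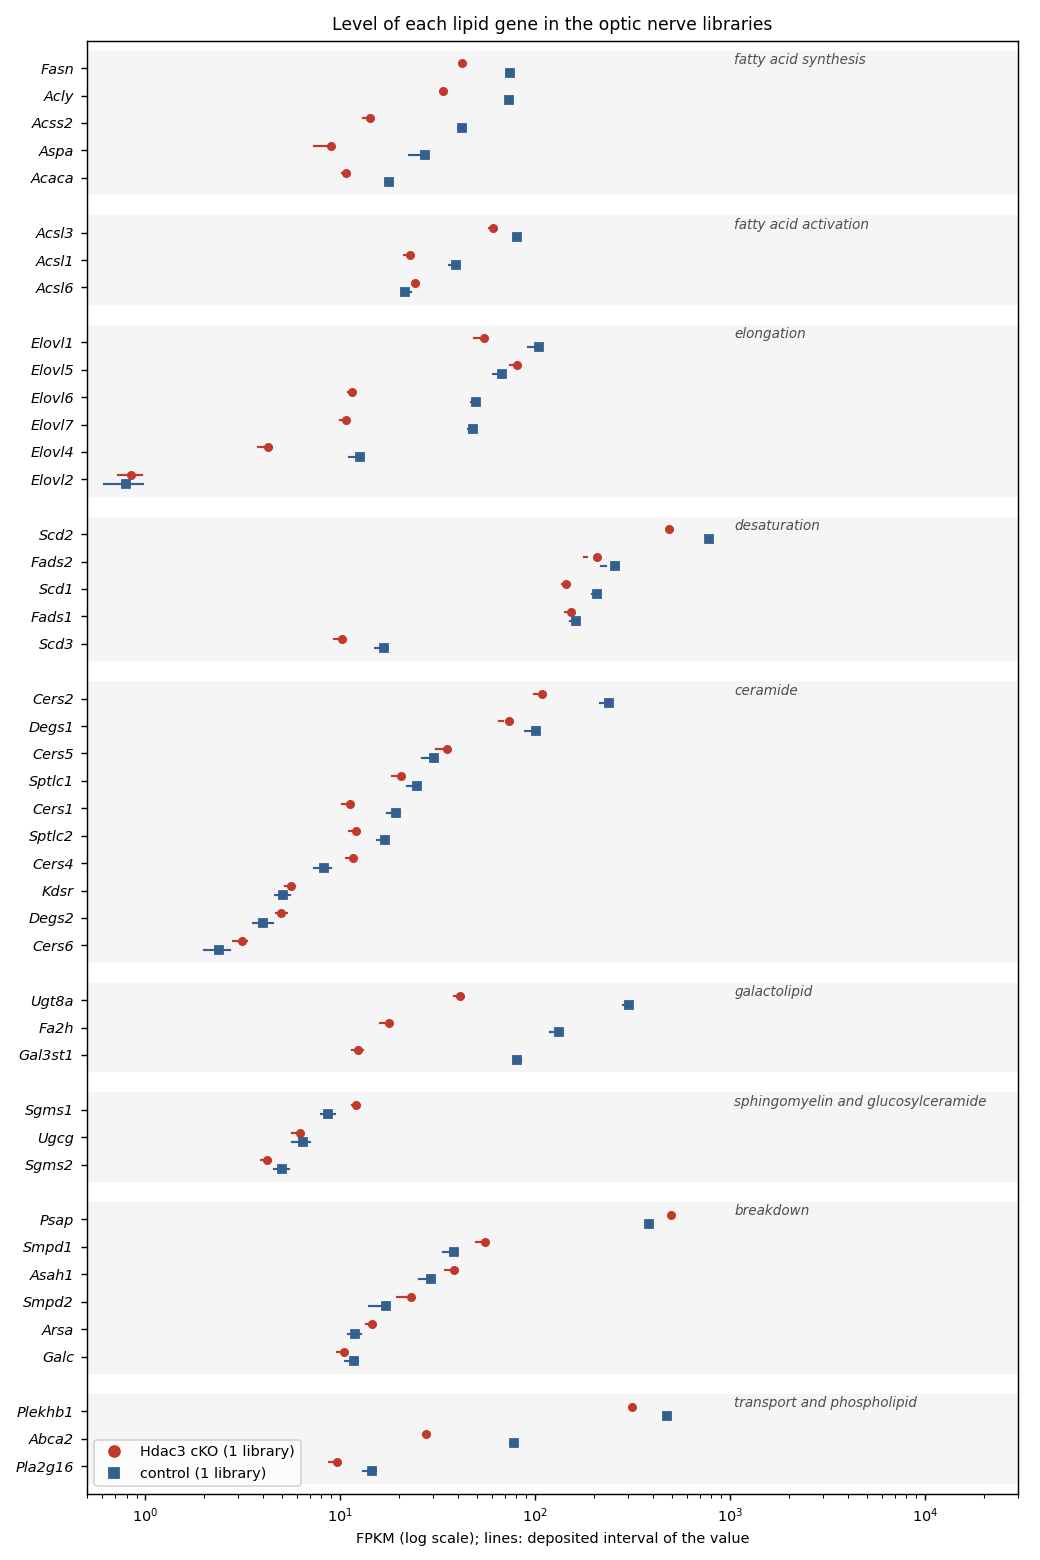
FPKM (log axis) of the 44 genes in the Hdac3 cKO library (red circles) and the control library (blue squares), grouped by step of the pathway, with lines for the deposited interval of each value. The circles of Ugt8a, Fa2h and Gal3st1 lie farthest left of their squares, and those of Smpd1, Cers4 and Sgms1 lie farthest right of theirs.

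**Figure D2:**
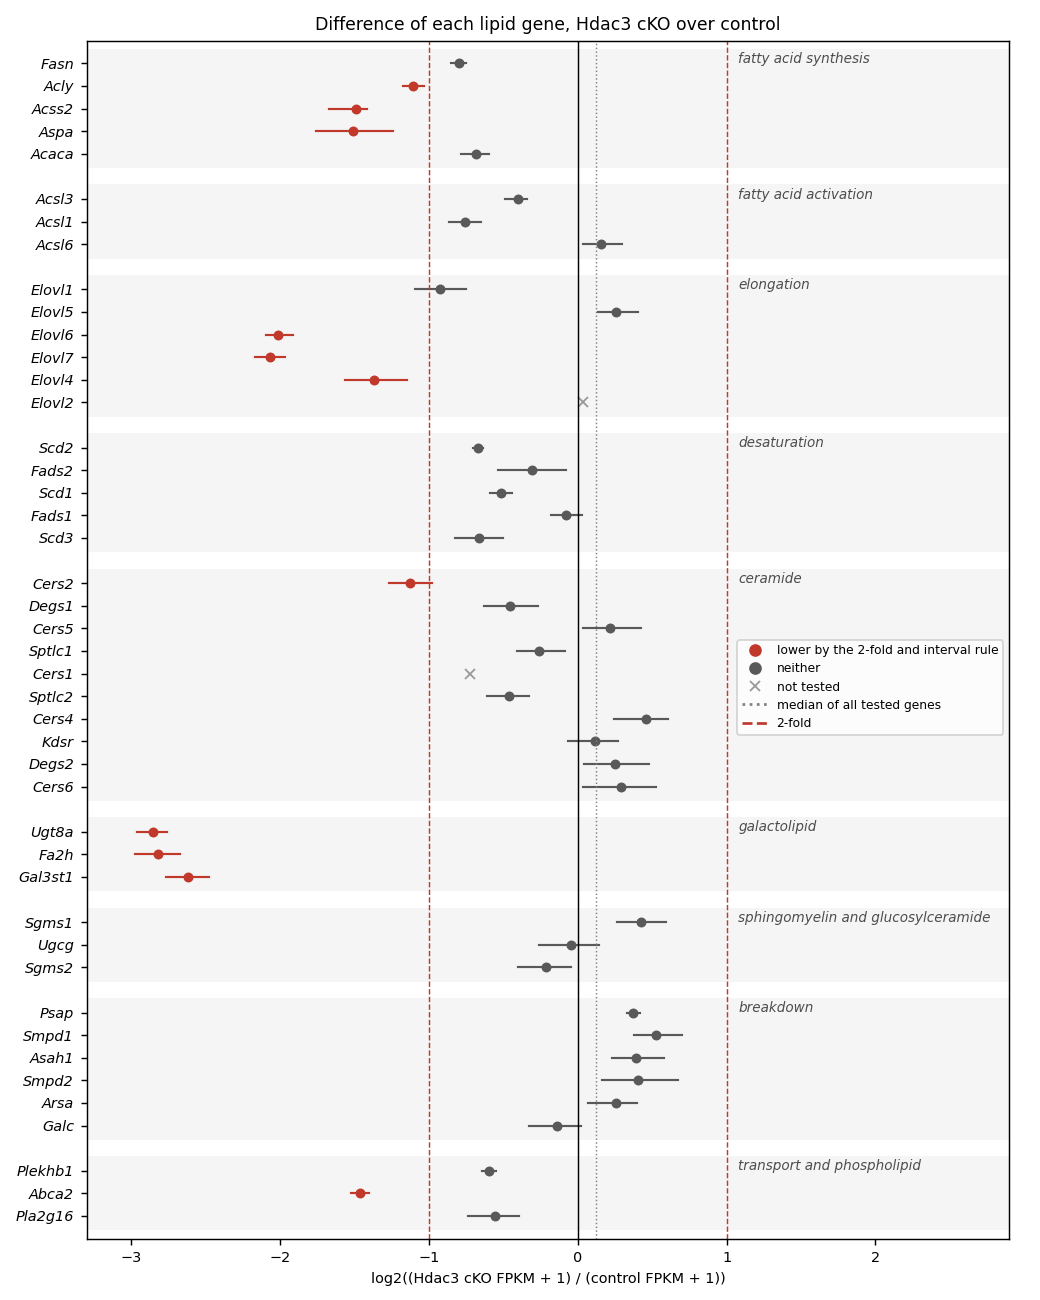
Difference of each gene, log2 of Hdac3 cKO FPKM plus 1 over control FPKM plus 1, with lines from the smallest to the largest difference that the deposited intervals allow. Red points are the 11 genes called lower, dark points the 31 that were not called and crosses the 2 that were not tested, and no point passes the 2-fold line on the higher side.

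The galactolipid branch had the lowest differences of the pathway. Ugt8a, the enzyme that adds galactose to ceramide and so makes galactosylceramide (chr3:125568261-125641468 in mm9), was at 41.0 FPKM (interval 38.1 to 40.0) in the cKO-labelled library and 303 FPKM (interval 283 to 292) in the control-labelled library. Its FPKM was 7.39-fold higher in the control-labelled library, a difference of -2.86. Fa2h, which puts the hydroxyl group on the fatty acids of these lipids (chr8:113869038-113917721 in mm9), was at 17.8 FPKM (15.9 to 17.3) in the cKO-labelled library and 132 FPKM (119 to 126) in the control-labelled library, a difference of -2.82. Gal3st1, the sulfotransferase that turns galactosylceramide into sulfatide (chr11:3883639-3899331 in mm9), was at 12.3 FPKM (11.5 to 13.0) and 80.3 FPKM (77.0 to 84.3) in the cKO-labelled and control-labelled libraries, a difference of -2.62. All 3 intervals stood apart, and all 3 genes were called lower in every other setting in which they were tested. Gal3st1 was tested in all 13 of these, while Ugt8a and Fa2h were not tested in the setting that leaves out values outside their own interval. Ranked by FPKM among tested genes, Ugt8a stood at place 1899 in the cKO-labelled library and at place 192 in the control-labelled library.

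These 3 were the only ones of the 42 tested genes whose difference fell within the range of 10 oligodendrocyte markers, from -3.09 to -2.20. Each of the 10 was lower. Their median was -2.63 and their summed level was 3881 FPKM in the cKO-labelled library and 28464 FPKM in the control-labelled library. Mbp, the main structural protein gene of myelin in the list, had 2013 FPKM in the cKO-labelled library and 15976 FPKM in the control-labelled library. In RNA of whole nerve, fewer cells of a type and less RNA per cell cannot be told apart, and the part of the oligodendrocyte markers in the differences of the lipid genes was not tested.

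The promoters of Ugt8a and Gal3st1 are shown because these genes lie together at the low end of the pathway. They are RefSeq windows of GRCm38.p6, from 250 bases before to 50 bases after a transcription start, written in the direction of the gene. Ugt8a is chr3:125938603-125938902 on the minus strand, and Gal3st1, at the first of its annotated starts, is chr11:3983386-3983685 on the plus strand. Capitals mark letters of a searched motif on either strand, and adjoining capitals can belong to overlapping matches.
Ugt8a: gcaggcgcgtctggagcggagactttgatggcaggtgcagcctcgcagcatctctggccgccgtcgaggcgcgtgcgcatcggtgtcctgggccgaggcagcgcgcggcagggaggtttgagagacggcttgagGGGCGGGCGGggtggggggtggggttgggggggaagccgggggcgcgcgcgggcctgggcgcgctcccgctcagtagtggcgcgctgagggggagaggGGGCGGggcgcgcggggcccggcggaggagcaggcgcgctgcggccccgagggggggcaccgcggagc
Gal3st1: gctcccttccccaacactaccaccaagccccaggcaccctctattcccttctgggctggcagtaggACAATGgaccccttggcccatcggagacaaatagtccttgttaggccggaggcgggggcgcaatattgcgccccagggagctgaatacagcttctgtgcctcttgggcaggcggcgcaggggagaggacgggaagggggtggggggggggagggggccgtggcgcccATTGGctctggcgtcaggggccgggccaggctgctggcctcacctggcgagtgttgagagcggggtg
The Ugt8a window holds 3 matches to the GC box GGGCGG, of which the first 2 overlap, and none to the other motifs searched. The Gal3st1 window holds 1 match to ACAATG and 1 to CCAAT, which reads ATTGG on the strand shown. The table of promoters held no window for Fa2h.

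Before the galactose is added, ceramide is made from serine and palmitoyl-CoA, and here 1 gene of the step was called lower. Sptlc1 and Sptlc2 are subunits of serine palmitoyltransferase, the entry enzyme of sphingolipid synthesis. Sptlc1 had 20.5 FPKM in the cKO-labelled library and 24.8 in the control-labelled library (-0.26), and Sptlc2 had 12.0 FPKM in the cKO-labelled library and 16.9 in the control-labelled library (-0.46). Kdsr, the next enzyme, which reduces ketodihydrosphingosine, had overlapping intervals, with 5.59 FPKM in the cKO-labelled library and 5.08 in the control-labelled library. Its difference of 0.12 is that of the median gene and turned to -0.18 with both libraries scaled to the same sum. None of these early enzymes reached the 2-fold size.

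Ceramide synthases attach the fatty acid, and each prefers chains of a certain length. Cers2, which uses very long chains, was called lower, with 109 FPKM (interval 98.5 to 102) in the cKO-labelled library and 238 FPKM (215 to 225) in the control-labelled library, a difference of -1.13. Cers4, Cers5 and Cers6 had no such difference. Cers5, which prefers palmitate, had 35.4 FPKM in the cKO-labelled library and 30.4 in the control-labelled library (0.21, and -0.13 scaled to the same sum). Cers6, with a similar preference, had 3.12 FPKM in the cKO-labelled library and 2.37 in the control-labelled library (0.29). Cers4, which uses long chains, had 11.7 FPKM in the cKO-labelled library and 8.22 in the control-labelled library (0.46). Cers1, the synthase known from neurons, was listed at 11.2 FPKM in the cKO-labelled library and 19.2 in the control-labelled library, and its locus overlaps those of Gdf1 and Upf1. Cers2 was the most abundant of the 5 synthases in both libraries. Cers2 made up 63.9% of their summed FPKM in the cKO-labelled library and 79.8% in the control-labelled library, while Cers5 made up 20.8% and 10.2% in that order. The ratio of Cers2 to Cers5 was 3.07 in the cKO-labelled library and 7.84 in the control-labelled library. Such ratios within a library do not depend on the scaling between libraries, but they show unequal change and not which gene changed.

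Degs1, the desaturase that turns dihydroceramide into ceramide, had 73.3 FPKM in the cKO-labelled library and 101 FPKM in the control-labelled library, a difference of -0.45. Degs2, which adds a hydroxyl group to the sphingoid base instead, had 4.97 FPKM in the cKO-labelled library and 4.02 in the control-labelled library (0.25, and -0.04 scaled to the same sum). Over the 9 ceramide genes tested, 1 was lower and 0 were higher, and the median of 0.12 became -0.18 scaled to the same sum. The ratio of Fa2h to Degs1, which sets the hydroxylase of the galactolipid branch against a general ceramide enzyme, was 0.243 in the cKO-labelled library and 1.31 in the control-labelled library.

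**Figure D3:**
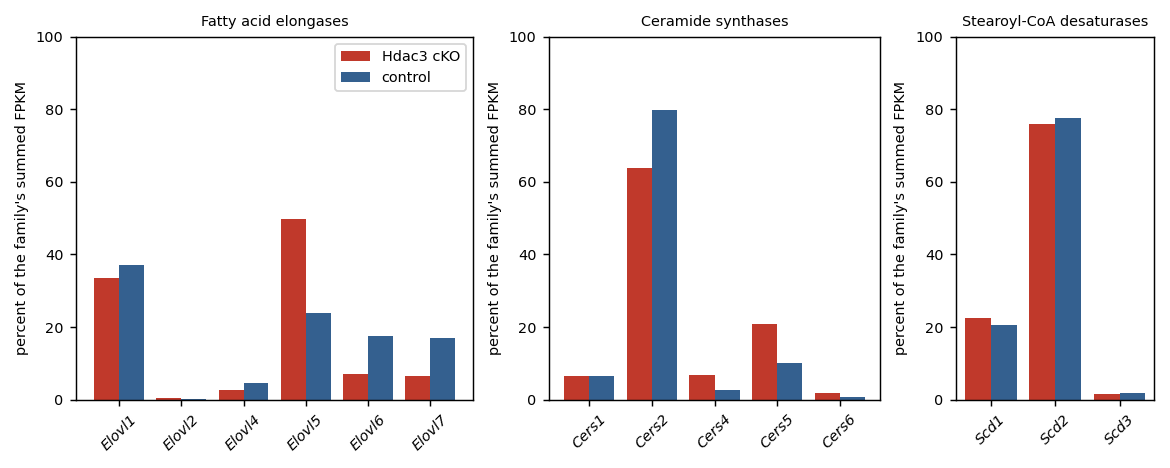
Percent of the summed FPKM of 6 fatty acid elongases, 5 ceramide synthases and 3 stearoyl-CoA desaturases that each gene makes up, with Hdac3 cKO in red and control in blue, 1 library each. Elovl5 stands at 49.7% against 23.8% and Cers2 at 63.9% against 79.8%, while the shares of Scd2, 75.9% against 77.6%, lie close together. Cers1, whose status is LOWDATA, is included in the sums.

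Elongation showed the widest range of any step, from -2.07 to 0.26, and 3 of its 5 tested genes were called lower. Elovl7, which lengthens saturated chains (chr13:109004598-109077301 in mm9), was at 10.6 FPKM (interval 9.99 to 10.8) in the cKO-labelled library and 47.8 FPKM (45.1 to 48.4) in the control-labelled library, a difference of -2.07. Elovl6, which takes palmitate to stearate (chr3:129235304-129341411 in mm9), was at 11.5 FPKM (10.9 to 11.7) in the cKO-labelled library and 49.5 FPKM (47.0 to 49.7) in the control-labelled library, a difference of -2.01. Their levels and their differences were close to each other, and neither reached the range of the oligodendrocyte markers. Elovl4, which makes the longest chains, had 4.25 FPKM in the cKO-labelled library and 12.5 FPKM in the control-labelled library, a difference of -1.37. It lost the call with a pseudocount of 5, which gave -0.92, and its levels are the lowest of the 11.

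Elovl1, the elongase of saturated very long chains that feed Cers2, had 54.3 FPKM in the cKO-labelled library and 104 FPKM in the control-labelled library. Its difference of -0.93 lies just outside the 2-fold rule, and it was called lower under each of the 4 other scalings. Elovl5, which lengthens polyunsaturated chains, had 80.5 FPKM in the cKO-labelled library and 67.1 in the control-labelled library, a difference of 0.26 that became -0.09 scaled to the same sum. Elovl2, an elongase of longer polyunsaturated chains, was at 0.844 and 0.797 FPKM in the cKO-labelled and control-labelled libraries, with overlapping intervals. The most abundant elongase thus differed, being Elovl5 in the cKO-labelled library, with 49.7% of the family's FPKM, and Elovl1 in the control-labelled library, with 37.0%. Elovl6 made up 7.11% of the family in the cKO-labelled library and 17.6% in the control-labelled library. The ratio of Elovl6 to Elovl5 was 0.143 in the cKO-labelled library and 0.738 in the control-labelled library.

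The promoters of Elovl7 and Elovl5 are shown as the elongases with the lowest and the highest difference. They are RefSeq windows of GRCm38.p6, Elovl7 at chr13:108214154-108214453 and Elovl5 at chr9:77917115-77917414, both on the plus strand, and capitals mark motif letters as above.
Elovl7: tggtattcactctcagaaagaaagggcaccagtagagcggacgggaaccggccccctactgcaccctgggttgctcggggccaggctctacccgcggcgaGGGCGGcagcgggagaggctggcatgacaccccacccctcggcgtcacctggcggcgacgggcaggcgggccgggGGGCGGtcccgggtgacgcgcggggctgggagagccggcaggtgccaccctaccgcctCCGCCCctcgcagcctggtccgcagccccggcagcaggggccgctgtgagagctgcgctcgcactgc
Elovl5: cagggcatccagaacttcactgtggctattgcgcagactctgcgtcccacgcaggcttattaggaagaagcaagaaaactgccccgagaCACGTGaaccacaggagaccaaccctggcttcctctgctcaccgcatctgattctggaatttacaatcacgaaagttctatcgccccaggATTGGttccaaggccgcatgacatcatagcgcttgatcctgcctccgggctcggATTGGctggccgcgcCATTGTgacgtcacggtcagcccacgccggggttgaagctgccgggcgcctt
The Elovl7 window holds 3 matches to GGGCGG. The Elovl5 window holds 1 match to the E-box CACGTG, 2 to CCAAT and 1 to ACAATG.

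Over the whole list, 38 of the 44 genes had RefSeq windows, 56 windows in all, and the shares with each motif are set beside those of other genes. The GC box was in a window of 27 of the 38 genes, 71.1%, against 68.4% of the 10312 tested symbols with windows and 38.2% of all 27025 symbols in the table. CCAAT was in 19 of the 38, against 42.8% of tested symbols. CACGTG was in 8 of the 38, 21.1%, against 11.4% of tested symbols, and these were Arsa, Cers2, Cers6, Degs1, Elovl4, Elovl5, Sgms2 and Smpd2, of which only Cers2 and Elovl4 were called lower. The core of the sterol response element, searched as TCACNCCAC, was in 1 of the 38, Acsl1, against 1.39% of tested symbols. AACAAT and ACAATG, cores bound by Sox factors, were each in 4 of the 38, 10.5%, against 7.17% and 9.01% of tested symbols, and CTGGNAC, the core bound by Myrf, was in 7 of the 38, 18.4%, against 21.3% of tested symbols. Both strands were searched, and the genes have more windows apiece than the symbols of the table at large. A match is a description of letters and not of a bound site.

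Acetyl-CoA for fatty acid synthesis comes from citrate or acetate, and the genes of these sources had larger differences than the enzymes that use it. Aspa, which releases acetate from N-acetylaspartate in oligodendrocytes and is the gene of Canavan disease (chr11:73118490-73138139 in mm9), was at 8.90 FPKM (interval 7.33 to 8.68) in the cKO-labelled library and 27.2 FPKM (22.4 to 26.5) in the control-labelled library, a difference of -1.51. Acss2, which joins acetate to coenzyme A in cytosol and nucleus, was at 14.3 FPKM (13.1 to 14.5) in the cKO-labelled library and 42.0 FPKM (40.4 to 44.1) in the control-labelled library, a difference of -1.49. Acly, which splits citrate to give acetyl-CoA, was at 33.6 FPKM (33.2 to 34.8) in the cKO-labelled library and 73.5 FPKM (72.3 to 76.3) in the control-labelled library, a difference of -1.11. All 3 were called lower.

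Acaca, the carboxylase that makes malonyl-CoA, had 10.7 FPKM in the cKO-labelled library and 17.8 in the control-labelled library (-0.68). Fasn, the fatty acid synthase itself, had 42.1 FPKM in the cKO-labelled library and 73.9 in the control-labelled library (-0.80). The intervals of both stood apart, but neither reached the 2-fold size on the deposited scale, and both did scaled to the same sum. All 5 genes of this step were below 0 under each scaling, with a median of -1.11 and a range of -1.51 to -0.68. Fasn and Acly were nearly equal in the control-labelled library, with a ratio of 1.01, while the ratio was 1.25 in the cKO-labelled library.

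Fatty acids are activated by long-chain acyl-CoA synthetases before use, and 0 of the 3 measured here was called. Acsl3, the most abundant, known from the endoplasmic reticulum and lipid droplets, had 60.3 FPKM in the cKO-labelled library and 80.2 in the control-labelled library (-0.40). Acsl1, which is widely expressed, had 22.7 FPKM in the cKO-labelled library and 39.2 in the control-labelled library (-0.76). Acsl6, the synthetase of brain that favours docosahexaenoic acid, had 24.2 FPKM in the cKO-labelled library and 21.6 in the control-labelled library (0.16, and -0.18 scaled to the same sum). The order of Acsl1 and Acsl6 by level was thus not the same in the libraries.

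The desaturases other than Scd3 were among the most abundant genes of the pathway, and 0 of the 5 was called on the deposited scale. Scd2, the stearoyl-CoA desaturase that prevails in brain, had 486 FPKM in the cKO-labelled library and 775 FPKM in the control-labelled library (-0.67). Scd1, the main form of liver and fat, had 144 FPKM in the cKO-labelled library and 206 FPKM in the control-labelled library (-0.52), and Scd3, known from skin, was at 10.2 and 16.7 FPKM in that order (-0.66). All 3 intervals stood apart and 0 of the 3 was called on the deposited scale. The ratio of Scd2 to Scd1 was 3.38 in the cKO-labelled library and 3.76 in the control-labelled library. The Scd genes are neighbouring near-copies on chromosome 19, and how the authors' counting divided shared reads is not stated, so their single values are uncertain.

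Fads1 and Fads2 put further double bonds into polyunsaturated fatty acids. Fads1 had 153 FPKM in the cKO-labelled library and 162 FPKM in the control-labelled library (-0.08), and Fads2 had 207 FPKM in the cKO-labelled library and 257 FPKM in the control-labelled library (-0.31). The 5 desaturases together had a median of -0.52, with 0 called, and all 5 lay below 0 under each scaling. The locus of Fads1 holds Mir6993, listed at 207 FPKM in the cKO-labelled library and at 0 in the control-labelled library. In all, 10 of the 44 genes overlap another entry, and the strand of the counting is not given, so reads of such neighbours cannot be told apart. Among the genes called lower these are Acss2, whose locus overlaps Acss2os (1.61 FPKM in the cKO-labelled library and 6.16 in the control-labelled library), Cers2, whose locus overlaps Setdb1 (12.6 and 11.8 FPKM in that order), and Abca2, whose locus overlaps Mir3087, listed at 0 in both libraries.

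The other uses of ceramide showed no call. Sgms1, the sphingomyelin synthase of the Golgi, had 12.0 FPKM in the cKO-labelled library and 8.67 in the control-labelled library (0.43). Sgms2, the synthase of the plasma membrane, had 4.20 FPKM in the cKO-labelled library and 5.04 in the control-labelled library (-0.21). Ugcg, which adds glucose in place of galactose, was at 6.19 FPKM (interval 5.63 to 6.37) in the cKO-labelled library and 6.43 FPKM (5.68 to 6.96) in the control-labelled library, a difference of -0.05 with overlapping intervals. The ratio of Ugt8a to Ugcg, the galactose over the glucose branch, was 6.62 in the cKO-labelled library and 47.2 in the control-labelled library.

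Breakdown was the one step with a median above that of all genes, 0.38 against 0.12, and 0 of its 6 genes was called in either direction. Galc, the galactosylceramidase whose loss causes Krabbe disease, was at 10.5 FPKM (interval 9.63 to 10.7) in the cKO-labelled library and 11.7 FPKM (10.5 to 12.3) in the control-labelled library, a difference of -0.14 with overlapping intervals. Arsa, the arylsulfatase that removes sulfate from sulfatide and is the gene of metachromatic leukodystrophy, had 14.4 FPKM in the cKO-labelled library and 11.9 in the control-labelled library (0.26, and -0.07 scaled to the same sum). The ratio of Ugt8a to Galc was 3.91 in the cKO-labelled library and 26.0 in the control-labelled library, and that of Gal3st1 to Arsa was 0.848 and 6.73 in that order.

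Psap, whose product is split into the saposins that assist these enzymes, had 499 FPKM in the cKO-labelled library and 385 FPKM in the control-labelled library (0.37). Smpd1, the acid sphingomyelinase, had 55.3 FPKM in the cKO-labelled library and 38.1 in the control-labelled library (0.53, the highest of the 42). Asah1, the acid ceramidase, had 38.4 FPKM in the cKO-labelled library and 29.0 in the control-labelled library (0.39), and Smpd2, a neutral sphingomyelinase, was at 23.1 and 17.2 FPKM in that order (0.40). The intervals of all 4 stood apart, which was so on the higher side for 38.4% of all tested genes. Scaled to the same sum, the median of the step was 0.03, with 4 genes above 0 and 2 below. Markers of microglia, cells rich in lysosomes, had a median of 0.54 with 0 of 8 called, 6 above 0 and 2 below. Their summed level was 368 FPKM in the cKO-labelled library and 236 FPKM in the control-labelled library. Scaled to the same sum, the median of these markers was 0.21, with 5 above 0 and 3 below. The part of microglia in the values of the breakdown genes was not tested.

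Abca2, a lysosomal and endosomal transporter abundant in oligodendrocytes, was called lower, with 27.5 FPKM (interval 26.4 to 27.6) in the cKO-labelled library and 77.5 FPKM (74.5 to 77.8) in the control-labelled library, a difference of -1.46. Plekhb1 had 312 FPKM in the cKO-labelled library and 473 FPKM in the control-labelled library (-0.60). Pla2g16, a phospholipase best known from fat tissue, had 9.58 FPKM in the cKO-labelled library and 14.5 in the control-labelled library (-0.55). The intervals of the last 2 stood apart without the 2-fold size. Adipocyte markers were near 0, with 1 of 7 tested, a summed level of 0.794 FPKM in the cKO-labelled library and 1.63 FPKM in the control-labelled library, and 3 of the 7 at 0 in the cKO-labelled library against 1 in the control-labelled library.

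**Figure D4:**
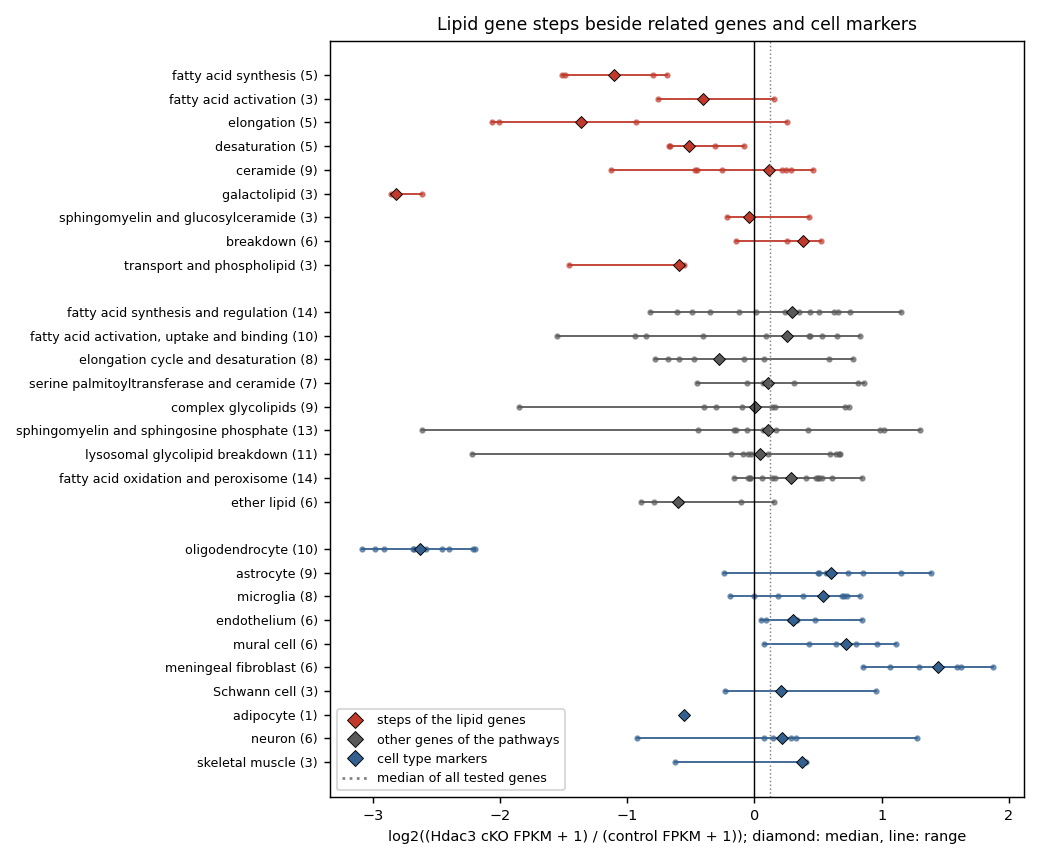
Differences (log2, Hdac3 cKO over control) of single genes (dots), their range (lines) and median (diamonds) for the steps of the lipid pathway (red), lists of other pathway genes (grey) and cell type markers (blue), with the number of tested genes in brackets. Galactolipid synthesis, at a median of -2.82, lies beside the oligodendrocyte markers, at -2.63, and the breakdown step, at 0.38, lies right of the median of all tested genes, 0.12.

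Other genes of the same pathways, 98 in 9 lists, are set beside the 44. These lists were drawn from general knowledge of lipid metabolism, with earlier results of these data known. There 92 were tested, of which 4 were lower and 3 higher, and their median was 0.08. These counts stand against the 4.51% lower and 4.73% higher of all tested genes. The lower ones were Enpp6, a choline phosphodiesterase of new oligodendrocytes, at 15.2 FPKM in the cKO-labelled library and 98.8 in the control-labelled library (-2.62), and Neu4, a sialidase, at 2.47 and 15.2 FPKM in that order (-2.22). They also included Gltp, a glycolipid transfer protein, at 86.7 FPKM in the cKO-labelled library and 316 in the control-labelled library (-1.86), and Fabp5, a fatty acid binding protein, at 115 and 340 FPKM in that order (-1.55). The higher ones were Sphk1, a sphingosine kinase, at 28.3 FPKM in the cKO-labelled library and 10.9 in the control-labelled library (1.30), Thrsp, a lipogenic protein induced by thyroid hormone, at 134 and 60.0 FPKM in that order (1.15), and Smpdl3a, a relative of acid sphingomyelinase, at 48.1 and 23.3 FPKM in that order (1.02). Scaled to the same sum, the differences of these last 3 were 0.96, 0.80 and 0.67, all under 2-fold.

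Of the 92 genes tested in these lists, 85 were not called on the deposited scale, and those named next are among the 85. Several of them are direct partners of the described enzymes. Only Sptssa of the genes named next had overlapping intervals. Slc25a1, which exports citrate from mitochondria for Acly, had 38.3 FPKM in the cKO-labelled library and 68.5 in the control-labelled library (-0.82). Hsd17b12 and Tecr catalyse other steps of each elongation round, and were at 49.1 and 174 FPKM in the cKO-labelled library and at 85.3 and 243 FPKM in the control-labelled library (-0.78 and -0.48), while Hacd2, listed as Ptplb, another enzyme of the round, was at 34.5 and 19.8 FPKM in the cKO-labelled and control-labelled libraries (0.77). Ormdl3, an inhibitory partner of serine palmitoyltransferase, had 46.5 FPKM in the cKO-labelled library and 26.0 in the control-labelled library (0.82), and Sptssb, a small subunit of that enzyme, was at 1.83 and 0.555 FPKM in that order (0.87). Dbi, which binds acyl-CoA, was the most abundant gene of these lists, at 2154 FPKM in the cKO-labelled library and 1371 FPKM in the control-labelled library (0.65). Slc27a4, a fatty acid transport protein, had 16.9 FPKM in the cKO-labelled library and 33.3 in the control-labelled library (-0.94), and Sptssa, the other small subunit of serine palmitoyltransferase, had 53.5 and 51.2 FPKM in that order (0.06). Scaled to the same sum, Slc25a1, Hsd17b12 and Slc27a4 differed by over 2-fold (-1.17, -1.13 and -1.27).

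**Figure D5:**
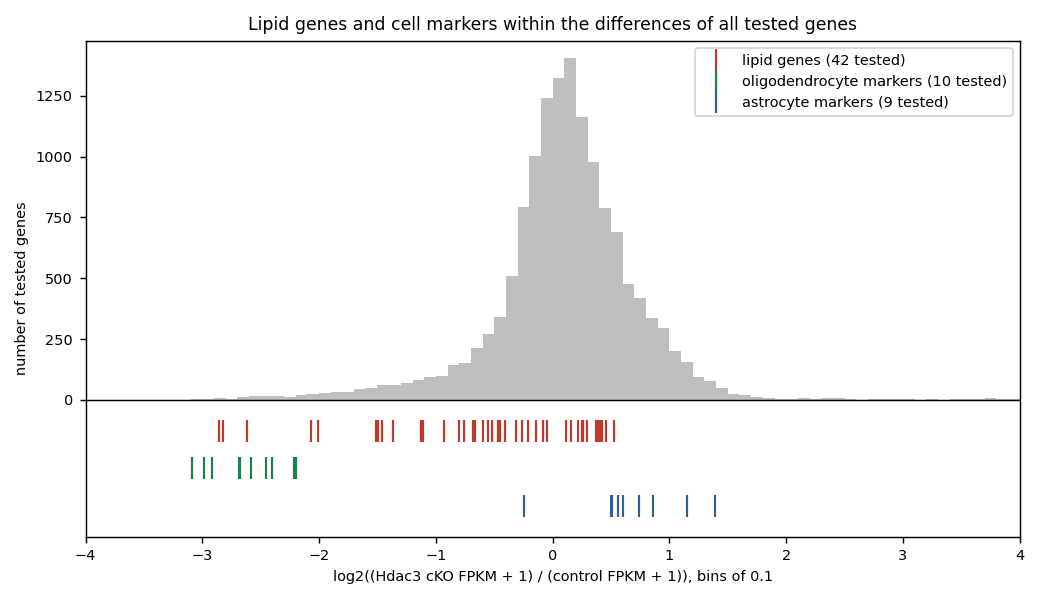
Histogram of the differences of all 14154 tested genes (log2, Hdac3 cKO over control, bins of 0.1), with ticks below it for the 42 lipid genes (red), 10 oligodendrocyte markers (green) and 9 astrocyte markers (blue). The lipid genes spread from -2.86 to 0.53, and the ticks of the 3 galactolipid genes share the range of the oligodendrocyte markers.

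Markers of other cells in the nerve had medians above 0 on the deposited scale. Among 9 astrocyte markers tested, 2 were higher and 0 lower and the median was 0.60, and Gja1 had 529 FPKM in the cKO-labelled library and 237 FPKM in the control-labelled library. Gfap, the tenth of that list, was skipped as HIDATA (too many fragments) in the cKO-labelled library and is listed there at 0. Meningeal fibroblast markers were higher for 5 of 6, with a median of 1.44 and a summed level of 3409 FPKM in the cKO-labelled library and 1454 FPKM in the control-labelled library, and mural cell markers were higher for 1 of 6, with a median of 0.72. Endothelial and neuronal markers had medians of 0.30 and 0.22, which turned to -0.02 and -0.05 scaled to the same sum, while the medians of astrocyte, mural and fibroblast markers stayed above 0 there (0.26, 0.38 and 1.09). Of the 6 neuronal markers 1 was higher, the neurofilament gene Nefl, with 29.5 FPKM in the cKO-labelled library and 11.6 FPKM in the control-labelled library (1.28, and 0.93 scaled to the same sum). Gap43, a gene of growing axons, was not called on the deposited scale, with 25.8 FPKM in the cKO-labelled library and 49.9 FPKM in the control-labelled library (-0.92). Its difference passed 2-fold centred on the median (-1.04) and scaled to the same sum (-1.27). Schwann cell markers, of the cells that make myelin with the same galactolipids outside the central nervous system, had 3 of 6 tested and a summed level of 11.8 FPKM in the cKO-labelled library and 10.6 FPKM in the control-labelled library. The part of these cells in the values of the lipid genes was not tested.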

How the data were processed

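Optic nerve RNA of 1 Hdac3 cKO library and 1 control library was analysed from the FPKM values the authors deposited per gene, with lower and upper interval bounds and a status, per the file headers. CASAVA, TopHat, Cufflinks and the build mm9 are named in the submitters' processing notes. Their versions are not given in the sources used, nor are the annotation, strand of counting, read numbers and mode of normalisation. Transcript lengths are empty, so counts were not recovered and depth is estimated only as a ratio between libraries. That ratio was read from the peak of 1117 entries under 0.05 FPKM in the control-labelled library, with 114 of them at the peak. With it, 56.7% of the 1117 lay within 0.1 of a whole multiple, against 20% if spread evenly. The ratio was set from these same entries, so this share is not independent support for it.

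The tables list genes in different orders and were joined on symbol, start site group and locus (24460 entries). The 268 symbols with several entries were represented by the one with the highest summed FPKM. Differences and calls were computed as the report describes, in Python 3.11.15 with numpy 2.4.6 and pandas 2.3.3, with p-values nowhere. The script was tested on simulated data. Other pseudocounts (0.1 and 5), minimum levels (none and 5 FPKM), 4 other scalings, other interval rules, a 1.5-fold size and summed entries were tried. Promoter windows and their GRCm38.p6 coordinates are RefSeq's and were matched by symbol, while gene loci are the authors' in mm9, with the start counted from 1.

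The genes and lists were chosen with earlier results of these data known. All 44 genes are named. Of each list of other pathway genes, the text names the 2 with the largest difference and the 2 with the highest mean FPKM, or fewer, and of each marker list at most 3 by mean FPKM, and some genes that this rule names are not reported here. Gfap is named outside this rule, after its values were seen.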

Additional observations from a re-analysis of the deposited data

How the results depend on the processing

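Of the 11 genes called lower, 10 kept the call in every other setting in which they were tested, and Elovl4 lost it with a pseudocount of 5 (-0.92). There were 13 other settings, and Aspa, Cers2, Fa2h and Ugt8a were not tested in the one without values outside their own interval. No difference of a called gene changed sign. Elovl1 was called under the other 4 scalings. Scaled to the same sum, Acaca, Fasn, Acsl1 and Scd2 were called too, and 6 uncalled genes changed sign. With a 1.5-fold size, 18 of 42 were lower, against 1253 lower and 2262 higher of all tested genes. Without values outside their own interval, a setting chosen after seeing the data, 21 of the 42 remained to be tested, 7 were lower and the elongation median was -2.01, while 485 genes were lower and 268 higher of the 9542 tested in all. Counts over all genes were 823 lower and 1156 higher with a pseudocount of 0.1, and 339 lower and 282 higher with a pseudocount of 5. Of all genes called, the share that was higher was 51.2% as deposited (638 lower, 669 higher), 43.3% scaled to the upper quartile, 40.2% scaled to the same sum without small RNA symbols, 36.6% centred on the median (439 higher), and 16.7% scaled to the same sum (996 lower, 199 higher). Small RNA symbols took 25.4% of the summed FPKM in the cKO-labelled library and 11.0% in the control-labelled library.

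No paired analysis was possible because each group has 1 library, and for the same reason no library was left out. The spread between animals is therefore unknown, and the deposited intervals cover estimation error only in part.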

Other observations

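Genes of fatty acid oxidation and of peroxisomes, which burn or shorten the chains that the enzymes above build, had 0 of 14 called in either direction and a median of 0.28, which became -0.04 scaled to the same sum. Cpt1a, which admits fatty acids to mitochondria, had 32.7 FPKM in the cKO-labelled library and 17.8 in the control-labelled library (0.84). Phyh, which starts the breakdown of phytanic acid in peroxisomes, had 47.2 FPKM in the cKO-labelled library and 30.7 in the control-labelled library (0.61). Abcd3, a peroxisomal transporter, had 43.3 FPKM in the cKO-labelled library and 48.5 in the control-labelled library (-0.16).

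Genes of ether lipid synthesis, which supply the plasmalogens of myelin, had 0 of 6 called on the deposited scale and a median of -0.60, with 5 of the 6 below 0. Scaled to the same sum, the median was -0.92 with all 6 below 0, and Far1 (-1.22) and Tmem189 (-1.13) differed by over 2-fold. Far1, which makes the fatty alcohol, had 9.92 FPKM in the cKO-labelled library and 19.3 in the control-labelled library (-0.89). Tmem189, which forms the vinyl ether bond, had 30.7 FPKM in the cKO-labelled library and 53.8 in the control-labelled library (-0.79). Gnpat, the first acyltransferase of the pathway, had 21.8 FPKM in the cKO-labelled library and 33.0 in the control-labelled library (-0.58). Among regulators of lipogenesis, Mid1ip1, a partner of Thrsp, had 93.7 FPKM in the cKO-labelled library and 69.2 in the control-labelled library (0.43, and 0.08 scaled to the same sum). The list that holds both, of fatty acid synthesis and its regulation, had a median of 0.29, with 9 of 14 above 0. Scaled to the same sum, that median was -0.01, with 7 above 0 and 7 below.

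Among genes of complex glycolipids, St3gal5, which starts the gangliosides by making GM3, had 28.1 FPKM in the cKO-labelled library and 16.8 in the control-labelled library (0.71). Gm2a, the activator of ganglioside breakdown, had 45.4 FPKM in the cKO-labelled library and 28.1 in the control-labelled library (0.68). St3gal2, another sialyltransferase, had 18.0 FPKM in the cKO-labelled library and 10.3 in the control-labelled library (0.75). Scarb2, a lysosomal membrane protein that carries glucocerebrosidase, had 96.4 FPKM in the cKO-labelled library and 103 in the control-labelled library (-0.09). None of these genes met the 2-fold and interval rule. Scaled to the same sum, St3gal5, St3gal2 and Gm2a differed by 0.37, 0.41 and 0.33. Gm2a and Scarb2 belong to the list of lysosomal glycolipid breakdown. The 9 tested genes of complex glycolipids had a median of 0.005, with 4 below 0. The 11 of the lysosomal list had a median of 0.04, with 5 below 0. These medians were -0.19 and -0.23 scaled to the same sum. Gltp of the complex glycolipids and Neu4 of the lysosomal list were called lower, as given above.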
